A study of Mus musculus with 12 samples.

Results

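The transcripts described here encode 9 proteoglycans of the extracellular matrix, measured in subcutaneous MC38 tumors of mice given an IGF-1R inhibitor, an anti-PD-1 antibody, both, or neither. They are the small leucine-rich proteoglycans decorin (Dcn), biglycan (Bgn), asporin (Aspn), lumican (Lum), fibromodulin (Fmod), Prelp and osteoglycin (Ogn), and the large proteoglycans versican (Vcan) and perlecan (Hspg2). The members were taken by gene symbol, and all 9 were found among the 18211 genes of the expression table and passed the filter on low counts.

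A proteoglycan is a core protein that carries long sulfated sugar chains, although not every member of the small leucine-rich family carries them. The small leucine-rich members bind to collagen fibrils, set their diameter and spacing, and hold growth factors such as TGF-beta in the matrix, and soluble decorin and biglycan also act on cell surface receptors. Versican binds hyaluronan in loose, provisional matrix, and perlecan is a structural part of basement membranes. In tumors these genes are expressed mostly by fibroblasts and other stromal cells, by vessels and, for versican, also by myeloid and cancer cells.

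MC38 is a mouse colon adenocarcinoma line that grows in C57BL/6 mice with an intact immune system. The cells were injected under the skin of female C57BL/6 mice bought at 5 weeks of age, and from day 7 the mice were treated in 4 groups. CK mice received the vehicle of DMSO and corn oil, PB-020 mice received that IGF-1R inhibitor by mouth at 50 mg/kg per day, anti-PD-1 mice received 200 µg of antibody into the peritoneum on days 9, 12, 15 and 18 after injection, and PB-020+anti-PD-1 mice received both agents. RNA of 3 tumors per group was sequenced. The p-values below measure the spread between these tumors, since the labels do not say that each came from a separate mouse.

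Decorin and versican were the members that separated tumors given the antibody from those that were not. Relative to CK, Dcn fell by 57.4% with anti-PD-1 and fell by 56.7% with PB-020 plus the antibody, and Vcan fell by 32.8% in the first and fell by 40.8% in the second. In the combination Prelp fell by 32.2% and Hspg2 fell by 30.7%. Bgn, the most abundant member, passed no test in any comparison. Lum and Fmod had higher estimates with the antibody, with wide differences between the tumors of a group, and neither change was called.

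Each library held 16545394 to 17217035 counts assigned to genes. RNA of fibroblast markers was present in every tumor, with none of 15 markers at 0. Their summed level was between 1644.79 and 3934.61 TPM (a level scaled to transcript length and to an equal total per library). The 8 epithelial markers expected of a colon carcinoma summed to only 4.13 to 7.69 TPM. Which cells gave the fibroblast marker RNA was not tested. Anti-PD-1 tumor 1 stood apart, with 12 skeletal muscle markers at 1522.66 TPM against 30.5 to 160.95 TPM in the other 11 tumors, and 12 tendon and cartilage markers at 209.18 TPM against 115.77 to 140.9 TPM. Its macrophage markers summed to 4572.25 TPM against 1807.76 to 2893 TPM, and its T cell markers to 249.28 TPM against 69.86 to 177.79 TPM. Its monocyte sum, at 734.38 TPM, and its pericyte and smooth muscle sum, at 272.95 TPM, were also the highest. CK tumor 3 held the most adipocyte marker RNA, at 643.43 TPM for 8 markers against 52.88 to 157.9 TPM elsewhere.

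Several members lie near each other in the genome (build GRCm38.p6, RefSeq coordinates of the whole gene, exons and introns included). Dcn (gene ID 13179, chr10:97479500-97518163, plus strand) and Lum (17022, chr10:97565501-97572703, plus strand) were 47337 bases apart with no RefSeq gene between them. Aspn (66695, chr13:49544443-49567565, plus strand) and Ogn (18295, chr13:49608015-49624501, plus strand) were 40449 bases apart with Omd, another small leucine-rich gene, between them. Prelp (116847, chr1:133910304-133930102, minus strand) and Fmod (14264, chr1:134037254-134048280, plus strand) were 107151 bases apart, pointed away from each other and had 2 RefSeq genes between them, Bmncr and Gm18970. Bgn (12111) lay at chrX:73483601-73495936 on the plus strand, Vcan (13003) at chr13:89655309-89743027 on the minus strand and Hspg2 (15530) at chr4:137468751-137570630 on the plus strand.

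The promoters of Vcan, Hspg2 and Prelp are shown because these genes were lowered together in the combination, and that of Fmod because it is the member nearest to Prelp on its chromosome with the opposite estimate. Each is the 250 bases before and 50 bases after the gene's start in RefSeq, 5′ to 3′ on the gene's own strand, at chr13:89742463-89742762, chr4:137468553-137468852, chr1:133921352-133921651 and chr1:134037004-134037303 in that order, and for Vcan, Hspg2 and Prelp the start used lies inside the span of the gene given above. Capitals mark matches, on either strand, to the TATA box TATAAA, the CCAAT box, the GC box GGGCGG, the AP-1 element TGANTCA, the SMAD-binding element CAGAC or the STAT element TTCNNNGAA.
Vcan: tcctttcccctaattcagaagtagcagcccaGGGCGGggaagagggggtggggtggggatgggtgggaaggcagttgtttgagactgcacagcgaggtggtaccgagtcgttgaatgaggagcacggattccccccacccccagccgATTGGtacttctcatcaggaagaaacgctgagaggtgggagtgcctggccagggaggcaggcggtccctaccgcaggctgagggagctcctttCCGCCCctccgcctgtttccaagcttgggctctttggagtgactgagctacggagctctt
Hspg2: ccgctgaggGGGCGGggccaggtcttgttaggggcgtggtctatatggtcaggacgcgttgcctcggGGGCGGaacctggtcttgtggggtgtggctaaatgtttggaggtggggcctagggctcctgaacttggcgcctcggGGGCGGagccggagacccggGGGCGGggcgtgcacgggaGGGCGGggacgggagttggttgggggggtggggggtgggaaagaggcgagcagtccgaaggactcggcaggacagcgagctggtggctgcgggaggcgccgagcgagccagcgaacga
Prelp: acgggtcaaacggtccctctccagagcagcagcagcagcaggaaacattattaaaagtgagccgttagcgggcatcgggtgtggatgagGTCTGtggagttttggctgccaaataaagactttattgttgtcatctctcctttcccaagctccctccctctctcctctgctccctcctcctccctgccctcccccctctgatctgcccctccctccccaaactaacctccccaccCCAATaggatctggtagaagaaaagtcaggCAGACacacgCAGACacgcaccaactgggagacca
Fmod: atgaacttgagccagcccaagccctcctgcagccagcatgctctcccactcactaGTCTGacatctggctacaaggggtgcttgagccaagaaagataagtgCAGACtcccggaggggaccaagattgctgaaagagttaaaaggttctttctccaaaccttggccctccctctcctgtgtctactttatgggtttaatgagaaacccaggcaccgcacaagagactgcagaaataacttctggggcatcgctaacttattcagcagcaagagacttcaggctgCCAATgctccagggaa
The Hspg2 promoter held 5 GC boxes, the Vcan promoter 2 GC boxes and 1 CCAAT box, the Prelp promoter 1 CCAAT box and 3 SMAD-binding elements, and the Fmod promoter 1 CCAAT box and 2 SMAD-binding elements. Of 32851 RefSeq promoters of 300 bases, 35.7% held a GC box, 37.4% a CCAAT box and 49.6% a SMAD-binding element, while 13.6% held a TATA box, 7.81% an AP-1 element and 8.30% a STAT element. A match is a description of the letters and not a bound site. Promoters were matched for 7 of the 9 members, with no entry for Dcn and Lum in the table used here.

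In CK tumors the members spanned a wide range of levels per transcript length. In FPKM (fragments scaled to transcript length and library depth), Bgn came first at 828.3 ± 53.2 (SD, n = 3), followed by Dcn at 395.8 ± 104.4, Vcan at 101.5 ± 10.6, Hspg2 at 76.2 ± 6.63, Prelp at 57.8 ± 5.09, Aspn at 24.2 ± 2.62, Ogn at 10.7 ± 2.61, Lum at 6.72 ± 2.0 and Fmod at 0.643 ± 0.356. Bgn ranked 104th and Dcn 181st of the 18211 genes, whereas Fmod ranked 12302nd. The ranges of Ogn and Lum overlapped, and all other neighbors in this order were apart in CK. In the combination the ranges of Vcan and Hspg2, of Prelp and Aspn, of Aspn and Lum, and of Lum and Ogn overlapped.

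**Figure D1:**
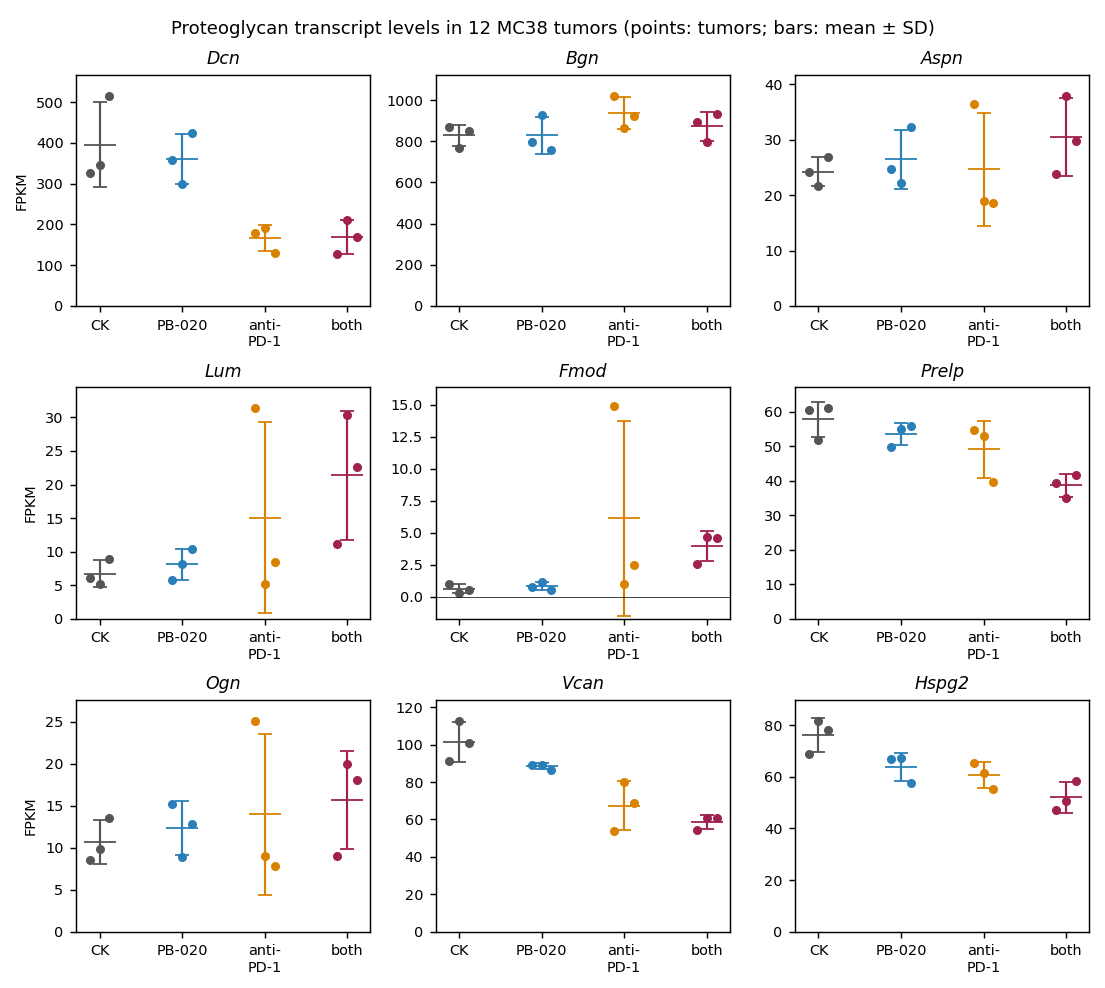
Transcript level in FPKM (vertical axes, each starting at 0 or, for Fmod, below 0 to hold the error bar) of the 9 genes in CK tumors, in tumors given PB-020 or anti-PD-1, and in tumors given both, with a point per tumor in replicate order and the mean ± SD as a line with bars. Dcn and Vcan are lower in all 6 tumors given the antibody, and the high Lum, Fmod, Ogn and Aspn point of the anti-PD-1 group is tumor 1.

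Decorin, a collagen-binding proteoglycan that also binds TGF-beta and receptor tyrosine kinases including IGF-1R, was at 326.13, 345.47 and 515.79 FPKM in CK tumors and at 358.01, 299.5 and 423.71 FPKM in PB-020 tumors. It was at 178.28, 190.25 and 129.93 FPKM in anti-PD-1 tumors and at 127.68, 211.02 and 168.17 FPKM in the combination. All 6 tumors given the antibody were below all 6 that were not, with no overlap and a ratio of means of 0.443. Against CK the log2 change was -1.23 (SE 0.24, adjusted p = 0.0187) in anti-PD-1 tumors and -1.21 (SE 0.24, adjusted p = 0.0103) in the combination by edgeR's quasi-likelihood test with Benjamini-Hochberg adjustment over 13563 genes, the test behind every adjusted p below. In PB-020 tumors it was -0.11 (95% interval -0.64 to 0.42). The anti-PD-1 call was lost without CK tumor 2, anti-PD-1 tumor 1 or anti-PD-1 tumor 3, with adjusted p of 0.0539, 0.0622 and 0.0676, and when only these groups were fitted, at 0.0608, within a range of 0.000122 to 0.0676 over all alternatives. The combination against CK kept an adjusted p of at most 0.0418 in all of them.

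Biglycan, the closest relative of decorin and a ligand of Toll-like receptors when released from the matrix, stayed within a narrow band. It was at 867.24, 767.74 and 850.01 FPKM in CK, 796.89, 928.89 and 759.2 FPKM in PB-020, 1022.16, 865.66 and 923.52 FPKM in anti-PD-1 and 893.47, 794.68 and 930.69 FPKM in combination tumors. The groups overlapped throughout. The 95% interval of its log2 change in the combination, -0.12 to 0.31, left out a fall of the size seen for Dcn.

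Asporin, a further relative of decorin, which binds collagen and TGF-beta, was at 24.18, 21.63 and 26.86 FPKM in CK, at 24.69, 22.24 and 32.37 FPKM in PB-020, at 36.41, 19.0 and 18.53 FPKM in anti-PD-1 and at 23.88, 37.95 and 29.77 FPKM in combination tumors. The groups overlapped, and its estimate in the combination was 0.35 (95% interval -0.27 to 0.98).

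Lumican, a keratan sulfate proteoglycan that spaces collagen fibrils, was at 6.06, 5.14 and 8.97 FPKM in CK tumors, 5.81, 8.11 and 10.36 FPKM in PB-020 tumors, 31.33, 5.21 and 8.53 FPKM in anti-PD-1 tumors and 11.15, 30.3 and 22.61 FPKM in the combination. All 3 combination tumors were above CK, while in the anti-PD-1 group tumor 1 was high and the others lay within the CK range. The log2 change in the combination was 1.69 (SE 0.67, adjusted p = 0.116), which did not pass the threshold. Without anti-PD-1 tumor 1, which enters the shared estimate of the spread, the adjusted p was 0.0279, with DESeq2 it was 0.0468, and over all alternatives it ran from 0.0279 to 0.278.

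Fibromodulin, which competes with lumican for a site on collagen, was the least abundant member, with 15 to 48 counts per CK library. It was at 1.03, 0.33 and 0.57 FPKM in CK, at 0.81, 1.16 and 0.52 FPKM in PB-020, at 14.87, 1.02 and 2.49 FPKM in anti-PD-1 and at 2.59, 4.65 and 4.61 FPKM in the combination. Again the combination tumors were all above CK, whereas anti-PD-1 tumor 2 lay at the upper end of CK and tumor 1 far above it. The log2 change was 2.63 (SE 0.97, adjusted p = 0.0935) in the combination and 3.25 (SE 0.97, adjusted p = 0.0742) in anti-PD-1 tumors. Without anti-PD-1 tumor 1 or 2 the combination value passed, at adjusted p of 0.00701 and 0.0446, as it did with DESeq2 at 0.0164 and with only these groups at 0.0120, in a range of 0.00701 to 0.250. The anti-PD-1 estimate was 1.47 without anti-PD-1 tumor 1 (adjusted p = 0.168) and 1.57 by limma, and it passed with DESeq2 (adjusted p = 0.00385) and without anti-PD-1 tumor 2 (0.0204), in a range of 0.00385 to 0.223.

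Prelp, which links basement membranes to the collagen beneath them, was at 60.56, 51.97 and 61.0 FPKM in CK, at 49.82, 54.91 and 55.96 FPKM in PB-020, at 54.64, 52.97 and 39.68 FPKM in anti-PD-1 and at 39.35, 35.08 and 41.72 FPKM in the combination. Every combination tumor was below every CK and PB-020 tumor, and anti-PD-1 tumor 3 alone of its group lay within the combination range. Of all genes tested, 22.4% had all combination tumors below CK and 15.7% had them all below PB-020. The log2 change in the combination was -0.56 (SE 0.11, adjusted p = 0.00585), with adjusted p of at most 0.0283 under every alternative run. In anti-PD-1 tumors it was -0.22 (SE 0.11, adjusted p = 0.216).

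Osteoglycin, a class III member found in bone and in fibrous tissue, was at 8.52, 9.87 and 13.57 FPKM in CK, at 15.26, 8.91 and 12.81 FPKM in PB-020, at 25.07, 9.01 and 7.86 FPKM in anti-PD-1 and at 9.07, 19.98 and 18.06 FPKM in the combination. All groups overlapped. The estimate in the combination was 0.58 with a 95% interval of -0.52 to 1.69.

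Versican, the hyaluronan-binding member, was at 91.4, 112.46 and 100.66 FPKM in CK, 89.35, 89.29 and 86.57 FPKM in PB-020, 53.74, 79.8 and 68.69 FPKM in anti-PD-1 and 54.59, 60.81 and 60.92 FPKM in combination tumors. All 6 tumors given the antibody lay below the other 6, as for Dcn, with a ratio of means of 0.664. Of all genes tested, 4.6% had all 6 antibody tumors below and 3.54% had all 6 above, set beside 2 and 0 of the 9 members. The log2 change was -0.57 (SE 0.12, adjusted p = 0.0138) in anti-PD-1 tumors and -0.76 (SE 0.12, adjusted p = 0.00241) in the combination. The anti-PD-1 call was lost without CK tumor 2 (adjusted p = 0.0753) or anti-PD-1 tumor 3 (0.0504) and with only these groups (0.0833), in a range of 5.99e-05 to 0.0833. It held without anti-PD-1 tumor 1. In PB-020 tumors Vcan was below CK in every tumor, with a log2 change of -0.19 (95% interval -0.44 to 0.06) that was not called.

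Perlecan, the heparan sulfate proteoglycan of basement membranes and a store of FGF and VEGF, was at 68.75, 81.52 and 78.2 FPKM in CK, 66.81, 67.11 and 57.74 FPKM in PB-020, 65.41, 61.46 and 55.24 FPKM in anti-PD-1 and 47.15, 50.45 and 58.58 FPKM in the combination. Every treated tumor was below the lowest CK tumor. Of all genes tested, 8.74%, 17.2% and 22.4% had all PB-020, all anti-PD-1 and all combination tumors below CK, each group taken alone. The log2 change was -0.53 (SE 0.10, adjusted p = 0.00499) in the combination, with adjusted p of at most 0.0314 under every alternative run. It was -0.31 (SE 0.10, adjusted p = 0.0691) in anti-PD-1 and -0.23 (SE 0.10, adjusted p = 0.874) in PB-020 tumors. The anti-PD-1 change was called with DESeq2 (adjusted p = 0.0158), in a range of 0.0158 to 0.235 over all alternatives.

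Counts of called members were read against the share of all genes called. With PB-020 alone, edgeR called 0 of 9 members, as did DESeq2 and limma, beside 0% of all 13563 genes called. An unadjusted p under the threshold of 0.05 was seen for 1 member, beside 741 of the 13563 genes. With anti-PD-1 alone 2 of 9 were called, both lower, beside 8.26% of all genes called and 4.08% called lower. In the combination 4 of 9 were called, all lower, beside 17.9% called and 9.6% called lower. Members with all tumors below CK numbered 2, 3 and 4 in PB-020, anti-PD-1 and the combination, beside 8.74%, 17.2% and 22.4% of all genes, and members with all tumors above CK numbered 2 in the combination, beside 17.9%. The median log2 change of the 9 members was 0.09 in the combination against -0.0026 over all genes, since 5 estimates were higher and 4 lower. The comparisons with CK share the same 3 control tumors. In bulk tumor RNA, fewer cells of a type and less RNA per cell cannot be told apart.

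**Figure D2:**
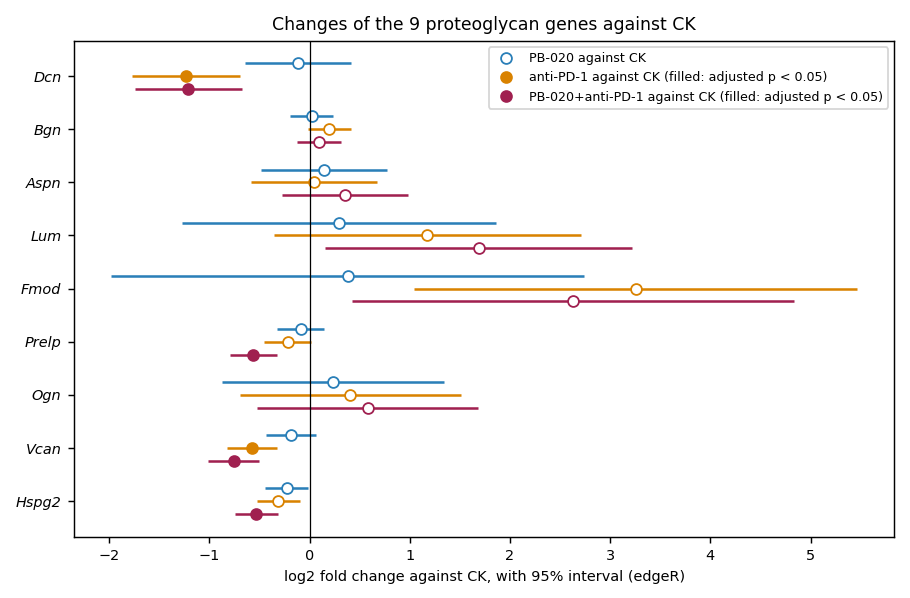
Log2 fold change against CK (horizontal axis) of each gene for the 3 treatments, with 95% intervals from edgeR as lines and filled points where the adjusted p was under 0.05. Dcn and Vcan are filled for anti-PD-1, Dcn, Vcan, Prelp and Hspg2 for the combination, and the intervals of Lum and Fmod are the widest.

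The effect of adding each agent to the other was tested next. With anti-PD-1 alone as the reference, 0 of 9 members were called in the combination by edgeR, DESeq2 and limma, with 0% of all genes called. Beside 984 of the 13563 genes, 2 members, Prelp and Hspg2, had an unadjusted p under 0.05. Their log2 changes were -0.34 (95% interval -0.58 to -0.11, adjusted p = 0.663) and -0.22 (95% interval -0.43 to -0.0049, adjusted p = 0.684), so the calls of Prelp and Hspg2 in the combination were not shown to differ from anti-PD-1 alone. For Dcn the log2 difference was 0.02 (95% interval -0.51 to 0.55). Against PB-020 alone, 3 of 9 members were called, all lower, beside 3.35% of genes called and 2.11% called lower. These were Dcn at -1.10 (SE 0.24, adjusted p = 0.0427), Prelp at -0.47 (SE 0.11, adjusted p = 0.0377) and Vcan at -0.57 (SE 0.12, adjusted p = 0.0295). None of these 3 calls held without PB-020 tumor 1, without PB-020 tumor 3 or without any of the combination tumors, when adjusted p rose to between 0.0605 and 0.151. Without CK tumor 1 the Dcn and Prelp calls were lost (0.0534 and 0.0521), without CK tumor 2 that of Dcn (0.0519) and without PB-020 tumor 2 that of Prelp (0.0696), and over all alternatives the adjusted p of the 3 genes ran from 0.000215 to 0.151. Fmod, at 2.25 (SE 0.94, adjusted p = 0.203), was called higher without anti-PD-1 tumor 1 (0.0258) and with only these groups (0.0031), and Hspg2 was called lower with DESeq2 (0.0356), with adjusted p over all alternatives of 0.0031 to 0.416 and 0.0356 to 0.321. The interaction, which asks whether the combination departs from the sum of the single changes in log2, was called for 0 of 9 members by edgeR, DESeq2 and limma, with 0 members at an unadjusted p under 0.05 and 0% of all genes called. Its interval was widest for Fmod, at -4.04 to 2.03, and narrowest for Hspg2 and Bgn, the latter at -0.43 to 0.18.

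The balance among the small leucine-rich transcripts shifted with Dcn. As a share of the summed TPM of the 7 small leucine-rich members, Dcn made up 25.2%, 28.7% and 34.9% in CK tumors and 28.6%, 22.6% and 32.7% in PB-020 tumors, against 13.1%, 16.6% and 11.5% in anti-PD-1 and 11.5%, 18.6% and 13.8% in combination tumors. Bgn made up 57.6% to 67.0% in CK and 70.1% to 80.7% in the combination. The ratio of Bgn to Dcn TPM was 1.65 to 3.10 in the 6 tumors without the antibody and 3.77 to 7.11 in the 6 with it. Lum, Fmod, Ogn and Aspn together were a small part, at 3.08% to 3.38% in CK and 4.22% to 8.19% in the combination. Anti-PD-1 tumor 1 held 7.90% of them and the other anti-PD-1 tumors 2.99% and 3.31%, which lay near CK.

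**Figure D3:**
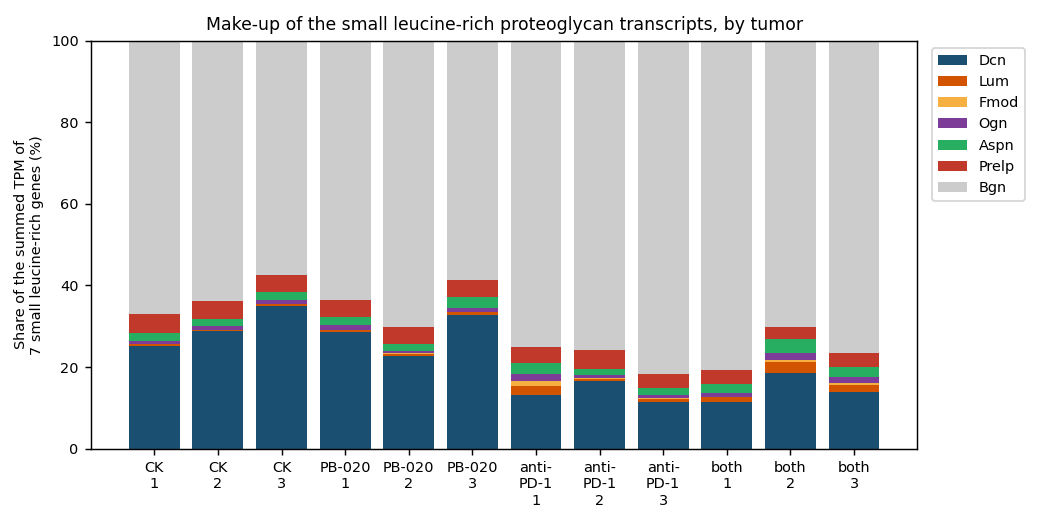
Share in percent (vertical axis) of each of 7 small leucine-rich genes in their summed TPM, with a stacked bar for each of the 12 tumors, labelled by group and replicate, where both means PB-020+anti-PD-1. The Dcn part is 22.6% to 34.9% in tumors without the antibody and 11.5% to 18.6% in tumors with it.

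Levels of Dcn and Lum, and of Prelp and Fmod, which lie near each other, went in opposite directions in the estimates, while Aspn and Ogn kept a closer ratio. The ratio of Lum to Dcn TPM was 0.0149 to 0.0271 in tumors without the antibody and 0.0274, 0.0656 and 0.176 in anti-PD-1 and 0.0873, 0.134 and 0.144 in combination tumors. The ratio of Fmod to Prelp TPM was 0.00627 to 0.0211 without the antibody and 0.0660 to 0.133 in the combination, with 0.0193, 0.0629 and 0.272 in anti-PD-1 tumors. Ogn to Aspn stayed between 0.352 and 0.688 over all 12 tumors.

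Among the less abundant members Aspn, Lum, Fmod and Ogn, 3 of the 6 pairs were correlated by both measures. Of 36 member pairs in all, correlated in log2 CPM (counts scaled to library size) over the 12 tumors, Aspn and Ogn had r = 0.87 and rho = 0.839 (permutation p adjusted over the pairs = 0.0065 and 0.023) and r = 0.743 without the 2 tumors farthest from the median. Lum and Fmod had r = 0.844 and rho = 0.727 (adjusted permutation p = 0.0086 and 0.036), with r = 0.687 without the 2 farthest tumors, which included anti-PD-1 tumor 1. Aspn and Lum had r = 0.824 and rho = 0.741 (adjusted permutation p = 0.012 and 0.036), with r = 0.592 without them. The other pairs did not pass by both measures. Lum and Ogn had r = 0.79 and rho = 0.594 (adjusted permutation p = 0.012 and 0.11, r = 0.51 without the 2 farthest), Fmod and Ogn r = 0.573 and rho = 0.322 (adjusted permutation p = 0.11 and 0.46, r = 0.045), and Aspn and Fmod r = 0.494 and rho = 0.315 (adjusted permutation p = 0.18 and 0.46, r = -0.041). For Aspn with Ogn, Lum with Fmod and Aspn with Lum, r was 0.947, 0.898 and 0.964 in the 6 tumors with the antibody (exact permutation p adjusted over 36 pairs = 0.14 for each) and 0.551, 0.116 and 0.751 in the 6 without it (0.87, 0.91 and 0.79), so that none passed within either set.

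Of all 36 pairs over the 12 tumors, 9 passed by both measures. Beyond those above, Fmod with Vcan (r = -0.926), Lum with Vcan (-0.792) and Dcn with Fmod (-0.729) were negative. Dcn with Vcan (0.828), Vcan with Hspg2 (0.791) and Bgn with Fmod (0.739) were positive. The r of Bgn with Fmod was 0.462 without the 2 farthest tumors, which included anti-PD-1 tumor 1. Dcn and Vcan form separate clusters of tumors with and without the antibody, so their correlations were taken within each cluster. Fmod and Vcan had r = -0.829 in the 6 tumors with the antibody and r = -0.704 in the 6 without it. Neither passed (exact permutation p adjusted over 36 pairs = 0.21 and 0.79). Lum and Vcan had r = -0.788 with the antibody and r = -0.508 without it (exact permutation p adjusted likewise = 0.24 and 0.87). Dcn and Fmod had r = 0.164 with the antibody and r = -0.459 without it (exact permutation p adjusted likewise = 0.92 and 0.87). Dcn and Vcan had r = 0.167 in the 6 tumors with the antibody and r = 0.101 in the 6 without it, with exact permutation p of 0.78 and 0.86. Vcan and Hspg2 had r = 0.913 and rho = 1 in the 6 tumors without the antibody (exact permutation p = 0.0014 and 0.0028, adjusted over 36 pairs 0.05 and 0.1, r = 0.938 without the 2 farthest) and r = 0.257 in the 6 with it.

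Over the 12 tumors, the genes whose log2 CPM were most like each member were taken from all tested genes, as a description with no test into which the group differences enter. For Dcn they were Crocc2 and Arsg (r = 0.97 for each), for Vcan Pias3 (0.988) and Wwtr1 (0.986), and for Hspg2 Igf2r (0.964) and Dlc1 (0.963). Prelp was nearest to Fstl1 (0.95) and Fbn1 (0.945), the latter encoding the microfibril protein fibrillin. Fmod was nearest to Megf6 (0.983) and Cpxm2 (0.98), Lum to Sgce (0.946) and Vgll3 (0.945), Bgn to Stk4 (0.928) and Gm31166 (0.927), Ogn to Cd83 (0.93) and Als2cl (0.919), and Aspn to Cers4 (0.907) and Cd302 (0.88).

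Genes that make, anchor or cut proteoglycans gave the context of these changes, with 17.9% of all genes called in the combination against CK as the background of each count. Among relatives of the members, 0 of 6 other small leucine-rich genes were called in the combination against CK by edgeR, DESeq2 and limma, and 0 had an unadjusted p under 0.05. Of 7 other large or secreted proteoglycans 1 was called, Col18a1, a basement membrane collagen with heparan sulfate, which fell by 0.70 on the log2 scale (SE 0.16, adjusted p = 0.0157). Of 15 cell surface proteoglycans 0 rose and 3 fell, namely the glypican Gpc1 (log2 change -0.77), the syndecan Sdc2 (-0.89) and Tgfbr3 or betaglycan, a TGF-beta co-receptor (-1.18), with adjusted p between 0.00153 and 0.00390. The counts of 1 of 7 and 3 of 15 lie near the share of all genes called. All 4 of these were also lower in anti-PD-1 tumors, at -0.67, -0.61, -0.74 and -0.89 and adjusted p of at most 0.0322. Without anti-PD-1 tumor 1 the calls numbered 1, 2 and 7 in these lists, and Col18a1 was not called without CK tumor 2 or combination tumor 1 or 2.

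Sugar-chain enzymes were called at a rate near that of all genes, 17.9%. Of 25 genes of linker, chondroitin and dermatan sulfate synthesis, 3 fell in the combination, the sulfotransferase Chst11 (-0.53), the chain initiator Csgalnact1 (-0.52) and the polymerizing factor Chpf2 (-0.41). Of 20 heparan and keratan sulfate genes 2 rose and 3 fell, so that 8 of the 45 genes of these lists were called. Sulf1, which removes sulfate from finished heparan sulfate, rose by 1.22 (SE 0.31, adjusted p = 0.0253) and Chst1, a keratan sulfate sulfotransferase, by 0.62 (SE 0.11, adjusted p = 0.00387), while the heparan sulfate enzymes Hs2st1 (-0.45) and Ext2 (-0.29) fell. Of 13 hyaluronan genes 1 rose and 2 fell. The fallers were the lymphatic and macrophage receptor Lyve1 (-2.23, SE 0.52, adjusted p = 0.0179) and Layn (-0.27), and the riser was Hmmr (0.61), which is also a mitotic gene. Single libraries moved these small counts, to 1 to 5, 2 to 8 and 1 to 4 called genes for the 3 lists, the lowest of each without combination tumor 1 and the highest of the first and second without anti-PD-1 tumor 1. The lowest counts also came without CK tumor 2 or 3 for the first list, combination tumor 2 for the second and CK tumor 2 or combination tumor 2 or 3 for the third, and the second was 3 without any of the CK tumors.

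The matrix partners and the proteases that cut proteoglycans were counted in the same way. Of 31 matrix partners 1 rose and 9 fell in the combination, beside 17.9% of all genes called and 9.6% called lower. The count of 10 became 16 without anti-PD-1 tumor 1 and 6 without combination tumor 1 or 2. Col6a1 (-1.0) and Col6a2 (-1.06), which encode chains of the collagen VI that binds decorin and biglycan, fell, as did Col5a1 (-0.73), a chain of the collagen V inside fibrils, and Lamc1 (-0.59), a laminin chain of basement membranes, with adjusted p between 0.00153 and 0.00220. Of 22 proteases and inhibitors 1 rose and 6 fell. The gelatinase Mmp2 (-1.0), its activator Mmp14 (-0.54), the versican-cleaving Adamts1 (-0.78) and Bmp1 (-0.43), which trims the propeptides of procollagen and biglycan, all fell, with adjusted p between 0.00122 and 0.00440. Of 27 growth factors and receptors bound by the members 2 rose and 3 fell, a count near the 17.9% of all genes called. Lrp1 (-0.54), an endocytic receptor that takes up decorin, P2rx7 (-0.47), a receptor linked to biglycan signaling, and Tgfb3 (-0.49) fell, and Pdgfb (0.76) rose, and this count of 5 was 8 without anti-PD-1 tumor 1, 2 without CK tumor 2 and 3 without CK tumor 3 or combination tumor 1. The median log2 change was -0.31 for the matrix partners and -0.16 for the proteases and inhibitors, against -0.0026 for all genes.

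The matrix and protease lists had fewer calls in the other arms. In anti-PD-1 tumors 0 matrix partners rose and 6 fell, and 0 proteases rose and 5 fell, beside the 8.26% of all genes called. With PB-020 alone edgeR called 0 of the 166 list entries tested, 10 of which had an unadjusted p under 0.05, beside 741 of all 13563 genes. Igf1r itself, the receptor that PB-020 inhibits and that decorin binds, was at 11.2 ± 0.959 FPKM in CK and 10.1 ± 0.575 FPKM in the combination (SD, n = 3), a log2 change of -0.13 (SE 0.06, adjusted p = 0.157). Pdcd1, which encodes PD-1, rose by 1.67 (SE 0.37, adjusted p = 0.0111) in the combination and by 1.79 (SE 0.37, adjusted p = 0.0168) in anti-PD-1 tumors.

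Marker levels of some other cells moved beside the members. The summed fibroblast markers were 3090.74 to 3934.61 TPM in CK, 2734.93 to 3049.84 TPM in PB-020, 1644.79 to 3514.35 TPM in anti-PD-1 and 1784.59 to 2411.78 TPM in combination tumors, so that CK and the combination did not overlap. Of the 15 markers 3 were called lower and 1 higher in the combination, and their median log2 change was 0.24, the opposite sign to the change in the sum. Of all genes tested, 9.6% were called lower and 8.35% higher in the combination, as the background of each marker count. Anti-PD-1 tumor 1, which stood apart with skeletal muscle markers at 1522.66 TPM, had a fibroblast sum of 3514.35 TPM and Dcn at 178.28 FPKM. Anti-PD-1 tumors 2 and 3 had fibroblast sums of 2155.68 and 1644.79 TPM with Dcn at 190.25 and 129.93 FPKM. Dcn was below every CK tumor in all 3 anti-PD-1 tumors. Erythroid markers fell as well, from 1217.75 to 2760.48 TPM in CK to 223.58 to 304.95 TPM in the combination, with 5 of 5 tested genes called lower, and 10 of 12 T cell markers were called higher, from 69.86 to 92.65 TPM in CK to 129.08 to 177.79 TPM. Keratinocyte markers summed to 161.99 to 229.48 TPM in CK and 310.38 to 389.41 TPM in the combination, with 1 of 7 tested genes called higher, beside the 8.35% of all genes. In anti-PD-1 tumors they summed to 250.52 to 340.09 TPM while their median log2 change was -1.57, the opposite sign to the change in the sum. Of 10 macrophage markers 0 were called in the combination. The part of these cell types in the members' changes was not tested.

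Anti-PD-1 tumor 1 had the highest Lum and Fmod of the 12 tumors and the highest skeletal muscle and tendon and cartilage sums. Its macrophage, monocyte, T cell, and pericyte and smooth muscle sums were the highest as well. Combination tumors 2 and 3 had Lum at 30.3 and 22.61 FPKM with skeletal muscle markers at 64.63 and 72.11 TPM, within the CK range of 55.44 to 157.12 TPM. Their tendon and cartilage markers were at 129.45 to 137.81 TPM, above the CK range of 115.77 to 121.38 TPM. In combination tumor 1, Lum was at 11.15 FPKM and skeletal muscle markers at 41.19 TPM, below their CK range. Its tendon and cartilage markers were at 121.19 TPM, within the CK range. Anti-PD-1 tumors 2 and 3 lay above the CK range of these markers, at 124.77 and 140.9 TPM, with Lum at 5.21 and 8.53 FPKM. So did the PB-020 tumors, at 124.12 to 128.73 TPM, with Lum at 5.81 to 10.36 FPKM. Of 8 tested tendon and cartilage markers, 0 were called higher and 1 lower in the combination, with a median log2 change of 0.0013. The part of these tissues and cells in the Lum and Fmod levels was not tested.

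**Figure D4:**
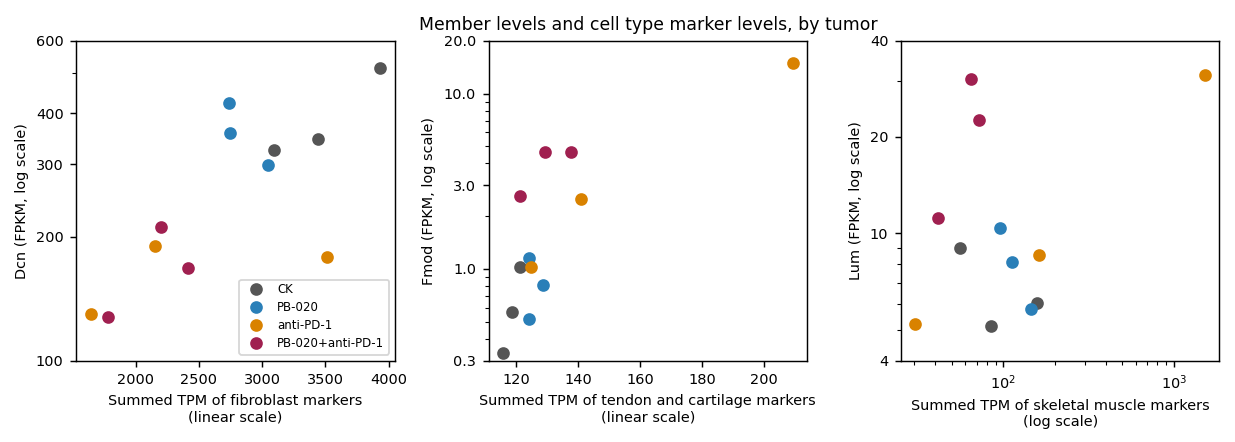
Levels of Dcn, Fmod and Lum in FPKM (vertical axes, log scale) against the summed TPM of fibroblast, tendon and cartilage, and skeletal muscle markers (horizontal axes, the last on a log scale), with a point per tumor colored by group. Anti-PD-1 tumor 1 is the point at 209.18 TPM in the middle panel and at 1522.66 TPM in the right panel, and combination tumors with high Lum lie at 64.63 and 72.11 TPM.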

How the data were processed

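Total RNA of 12 MC38 tumors, 3 in each of 4 groups given by the labels, was sequenced by the study with reads of 150 bases. Per the labels, HISAT and Bowtie2 were used with build GRCm38.p6. The study's methods give Bowtie2 at its default settings followed by RSEM, and neither the tools' versions nor the settings of HISAT are given in the sources used here. The authors deposited expected counts per gene, of which 91% were whole numbers, together with FPKM and TPM for each tumor. The deposited FPKM and TPM values are normalized for gene length and sequencing depth, so a few very abundant transcripts can move them. The authors' group means were not used.

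Expected counts were rounded and tested with edgeR 4.0.16 (R 4.3.3; genes kept by filterByExpr with a minimum count of 10, TMM scaling, robust quasi-likelihood fit with a mean per group over all 12 libraries). The study's methods tested FPKM. A gene was called when its p, adjusted across the 13563 tested genes, was under 0.05. SE is the estimate over the root of F, and intervals are at 95%. DESeq2 1.42.0, limma 3.58.1 on log2(FPKM + 1), other filters and scalings, and leaving out each tumor were alternatives. The fit was run on simulated counts drawn with its own estimated spread, so this check could not show misfit to an outlying tumor. Correlations used log2 CPM with a prior count of 2 and 100000 permutations. Fmod had the lowest depth, with 15 counts in the CK library that held fewest. Gene IDs were matched to RefSeq for 99.3% of genes, and promoters come from RefSeq GRCm38.p6.

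The members, gene lists and markers were chosen with earlier results of these data known. Named beside the 9 members were the drug targets Igf1r and Pdcd1, up to 4 genes of each list with the smallest p among those called in the combination against CK, and the 2 genes with the highest correlation with each member. Marker genes were used as lists only.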

Additional observations from a re-analysis of the deposited data

How the results depend on the processing

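The count of members called in the combination against CK was 4 and ran from 4 to 6 over all alternatives, and no member was called in any alternative for PB-020 against CK, the combination against anti-PD-1 or the interaction. For anti-PD-1 against CK the count of 2 became 4 with DESeq2 and 0 with only the groups compared, and ran from 0 to 3 when a tumor was left out. For the combination against PB-020 the count of 3 ran from 0 to 4 when a tumor was left out. Replicate numbers did not pair the tumors (18 same-number pairs, correlations of -0.21 to 0.289, 2 of them over 0.1), and with the replicate block that count was 1 (adjusted p = 0.0658 for Dcn and 0.0629 for Prelp). Called genes among the 31 matrix partners numbered 10 in the combination and ran from 6 to 18. The cause of these shifts was not tested.

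Some estimates that were not called changed sign. With limma, Aspn in anti-PD-1 against CK was -0.0399, Bgn in PB-020 against CK -0.0034 (-0.0023 with library size alone), Fmod in the combination against anti-PD-1 0.0081 and the Ogn interaction 0.0796 (0.0502 with the replicate block). With a tumor left out, log2 changes against CK ran from -0.34 to 0.20 (Aspn, anti-PD-1), -0.0285 to 0.25 (Aspn, PB-020), -0.0717 to 0.0748 (Bgn, PB-020), -0.25 to 0.11 (Dcn, PB-020) and -0.31 to 0.68 (Ogn, anti-PD-1). Against anti-PD-1 the combination ran from -0.17 to 0.19 (Dcn), -1.11 to 1.16 (Fmod) and -0.10 to 0.89 (Ogn). Interactions ran from -0.0163 to 0.55 (Aspn), -0.0763 to 0.30 (Dcn), -1.52 to 0.77 (Fmod), -0.0759 to 0.0829 (Hspg2), -0.17 to 1.34 (Lum), -0.33 to 0.65 (Ogn) and -0.14 to 0.15 (Vcan).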
